A study of Mus musculus with 6 samples.

Results

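Zscan4c, Zscan4d, Zscan4f, Tcstv1, Tcstv3 and Zfp352 are genes of the 2-cell mouse embryo that a small share of cultured ESCs also transcribes at any time. They were taken by name from the table of gene expression, in which they make up 6 of 23235 entries. All 6 were low in ESCs, between 0.460 and 3.02 FPKM, and all 6 were higher in NCs, between 5.41 and 53.9 FPKM. FPKM is a count of cDNA fragments divided by transcript length and by sequencing depth, so it is a level per length and can be compared between genes. The ratio of the NC level to the ESC level ran from 9.98 for Zfp352 to 28.2 for Zscan4d, with a median of 19.2.

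All cells came from the mouse ESC line E14Tg2a, between passages 37 and 40. ESCs were kept in serum medium with leukemia inhibitory factor (LIF), the cytokine that holds them pluripotent, and were collected as 3 samples. NCs came from the same line, grown as monolayers with no LIF and with 1 µM retinoic acid (RA) for 48 h, which starts neuronal differentiation, and were also collected as 3 samples. Total RNA of each sample came from 2 plates of 60 mm. The table holds 1 FPKM value per gene and condition, the authors' pooled value over the 3 samples, so there is no value per sample and no SD. The differences between the conditions were not tested here, since the authors' own test columns were not used, and no difference between neighbouring levels can be set against a replicate spread. A population measured in bulk also does not tell a larger number of expressing cells from more RNA per expressing cell.

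After fertilization the mouse zygote is transcriptionally quiet, and the first large wave of its own transcription comes at the 2-cell stage. Some genes of this wave are silent in later embryos, but single ESCs pass in and out of a state in which such genes are on again. Zscan4 proteins carry a SCAN domain and zinc fingers and are known for their part in telomere lengthening by recombination in ESCs. Tcstv genes, named for a 2-cell-stage variable group, encode short proteins of little known biochemistry, and Tcstv1 has also been linked to telomere length. Zfp352 is a zinc finger gene that the early embryo transcribes. Dux, a double homeobox transcription factor, is known to switch on many genes of this group, and Dppa2 and Dppa4 are known to act ahead of Dux.

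The Zscan4 genes are near-identical copies, so the sequence they share matters for how fragments are assigned to each. In the GENCODE M21 annotation of the mouse genome GRCm38, which is the same assembly as mm10, Zscan4c lies at chr7:11005745-11010547 on the plus strand, Zscan4d at chr7:11161374-11166159 on the minus strand and Zscan4f at chr7:11397915-11402318 on the plus strand. Each is protein coding with 4 exons and a coding part of 1518 bases. The coding parts of Zscan4c and Zscan4f were 99.6% identical, with 6 mismatches, and Zscan4d was 97.7% identical to either one. Of 1518 aligned coding positions 38 differed among the 3 genes, and the longest run that all 3 shared was 233 bases. The stretch that told them apart best, coding bases 1032 to 1091, holds 6 of these positions, in capitals below.
Zscan4c: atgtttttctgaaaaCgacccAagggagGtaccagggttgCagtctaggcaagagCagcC
Zscan4d: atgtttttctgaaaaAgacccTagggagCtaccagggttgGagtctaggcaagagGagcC
Zscan4f: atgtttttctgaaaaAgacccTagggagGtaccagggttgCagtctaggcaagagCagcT
Zscan4d alone carried its letter at 3 of the 6 positions, and Zscan4c and Zscan4f differed from each other at 3.

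Tcstv1 lies at chr13:119893388-119894785 on the minus strand and Tcstv3 at chr13:120316878-120318178 on the plus strand, each with 2 exons. Their coding parts hold 513 and 507 bases and were 94.5% identical, with 28 mismatches. Coding bases 394 to 453 differed most, at 9 positions.
Tcstv1: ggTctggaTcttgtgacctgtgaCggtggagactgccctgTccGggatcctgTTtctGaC
Tcstv3: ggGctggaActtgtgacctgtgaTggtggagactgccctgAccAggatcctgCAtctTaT
The Tcstv pair was therefore less alike than the Zscan4 genes, and its longest shared run was 119 bases. Zfp352 lies alone at chr4:90218820-90225702 on the plus strand, with 2 exons and a coding part of 1653 bases.

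Every transcript was divided into all its words of 50 bases, and each word was looked for in the transcripts of all other genes. In Zscan4f 86.8% of the words were also found in another gene, in Zscan4c 85.5% and in Zscan4d 49.6%. The share was 31.4% in Tcstv3, 15.0% in Tcstv1 and 7.09% in Zfp352. The main partners of Zscan4c and Zscan4f were each other and the annotated copies Zscan4-ps2 and Zscan4-ps3, which have no entry under these names. For Tcstv1 and Tcstv3 they were each other and Gm21818. For Zfp352 they were Zfp353-ps, with 6.29% of its words, and Enah, with 0.808%. How the authors' software divided fragments that fit several copies is not given in the sources used here, so the value of a single Zscan4 gene is uncertain, and the 3 Zscan4 entries are not independent of each other.

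**Figure D1:**
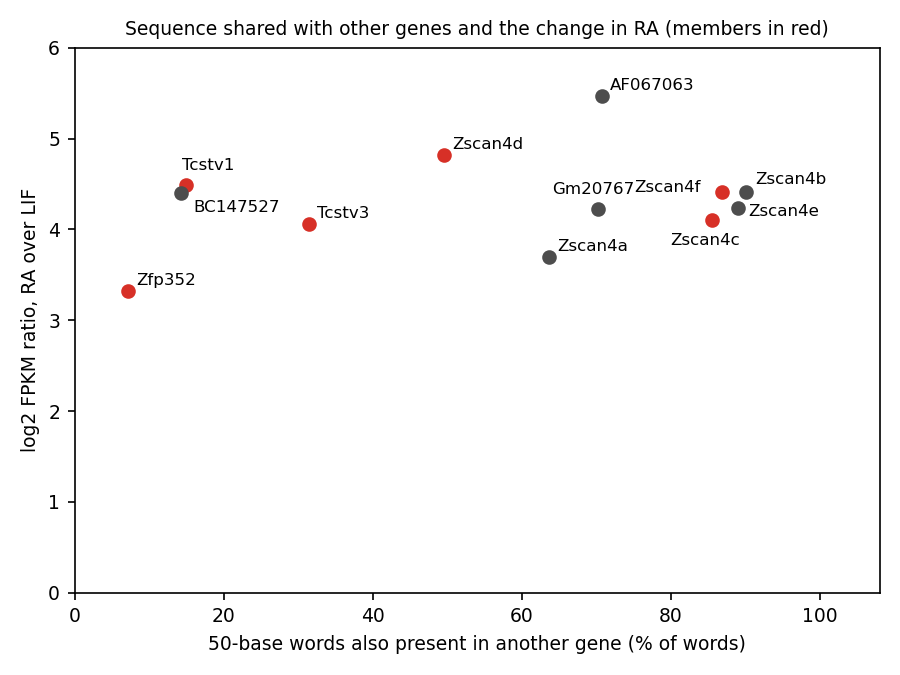
Each point is 1 gene, with the percentage of its 50-base words found in another gene on the horizontal axis and the log2 ratio of FPKM, RA over LIF, on the vertical axis; members are red and other copies grey. Zfp352, with 7.09% shared words, sits at 3.32 and Zscan4f, with 86.8%, at 4.42.

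Zscan4c had 2.36 FPKM under LIF and 40.5 FPKM after RA. Zscan4d had 1.91 FPKM under LIF and 53.9 FPKM after RA, the highest NC level of the 6 genes. Zscan4f had 2.20 FPKM under LIF and 47.0 FPKM after RA. The 3 levels lay within 1.23-fold of each other in ESCs and within 1.33-fold in NCs, so the copies lay close together in each condition. The ratio of NCs to ESCs was 17.2 for Zscan4c, 28.2 for Zscan4d and 21.3 for Zscan4f. Summed over the 3 genes, the level was 6.47 FPKM under LIF and 141 FPKM after RA, a ratio of 21.8. The longest GENCODE transcripts hold 2276 bases for Zscan4c, 2272 for Zscan4d and 1829 for Zscan4f. Since FPKM is a level per length, the sum still depends in part on how fragments were divided among the 3.

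The table holds 3 more Zscan4 copies on the same stretch of chromosome 7. Zscan4a, annotated as an unprocessed pseudogene, had 2.05 FPKM under LIF and 26.6 FPKM after RA. Zscan4e had 0.877 and 16.5 FPKM, and Zscan4b had 0.274 and 5.84 FPKM. These 2 genes share 85.8% of the 50-base words of Zscan4e, and both lay below the other copies in each condition. Over the 6 Zscan4 copies with an entry the summed level was 9.68 FPKM under LIF and 190 FPKM after RA, a 19.7-fold difference. The annotated copies Zscan4-ps1, Zscan4-ps2 and Zscan4-ps3 have no entry under these names and are not in this sum. Zscan4d took 19.8% of the summed level in ESCs and 28.3% in NCs, Zscan4f 22.8% and 24.7%, and Zscan4c 24.4% and 21.3%. The share of Zscan4a was 21.2% in ESCs and 14.0% in NCs. In ESCs Zscan4c was the highest copy and Zscan4d the fourth, while in NCs Zscan4d was the highest, and with this much shared sequence and no replicate values this change of order has no error to be set against.

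Tcstv3 had 3.02 FPKM in ESCs, the highest ESC level of the 6 genes, and 50.2 FPKM in NCs. Tcstv1 had 0.460 FPKM in ESCs, the lowest, and 10.3 FPKM in NCs. Tcstv3 thus stood 6.55-fold above Tcstv1 in ESCs and 4.86-fold above it in NCs, although their NC to ESC ratios were close, at 16.6 and 22.5. Their sum was 3.48 FPKM under LIF and 60.6 FPKM after RA.

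Zfp352 had 0.542 FPKM under LIF and 5.41 FPKM after RA, a ratio of 9.98. It was the member with the lowest NC level, 9.97-fold under that of Zscan4d, and the one with the smallest ratio. It is also the member with the least sequence in common with other genes, and it lies on another chromosome than the rest. The order of NC levels was Zscan4d, Tcstv3, Zscan4f, Zscan4c, Tcstv1 and Zfp352, with the first 4 within 1.33-fold of each other.

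**Figure D2:**
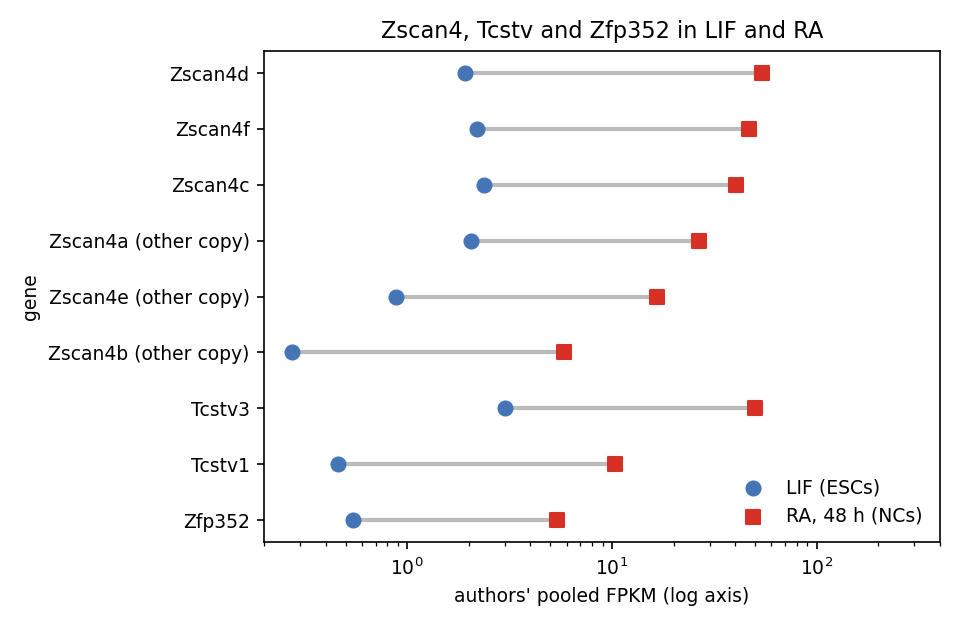
Authors' pooled FPKM on a log axis for the 6 members and the 3 other Zscan4 copies with an entry. A blue circle marks ESCs in LIF and a red square NCs after 48 h of RA, with 1 value per condition and no error bars. Every gene shown is higher in NCs, from 5.41 FPKM for Zfp352 to 53.9 FPKM for Zscan4d.

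Depth could be read only from the lowest values of the table. In genes with a single transcript the lowest FPKM values, multiplied by the length to which fragments can align, gathered at 0.0119 and 0.0138 FPKM kb in ESCs and at 0.00715 and 0.0135 FPKM kb in NCs, and these were taken as the worth of 1 fragment. On this scale the ESC value of Tcstv1 rests on 23 to 42 fragments, that of Zfp352 on 57 to 94 and that of Tcstv3 on 127 to 146. Those of the 3 Zscan4 genes rest on 261 to 410. These counts were worked back from FPKM with either step taken as 1 fragment. For the Zscan4 genes they can include fragments that fit several copies, as the authors' software divided them. The exact 95% Poisson interval for 23 fragments is 14.6 to 34.5 and for 57 fragments 43.2 to 73.9, which covers counting error only. The NC values rest on 518 to 1564 fragments for Tcstv1 and on more for each of the other members. A floor of 3 fragments is worth 0.0199 to 0.0713 FPKM in ESCs, depending on the gene, and all 6 ESC values lay above it, so no ratio is only a lower bound.

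Set against the whole table, the members stood among the large rises. An entry was counted when it reached 1 FPKM in either condition and was called higher or lower when the conditions differed by at least 2-fold. Of 13293 counted entries 12.5% were higher in NCs and 10.6% were lower, and all 6 members were higher. Tcstv1 and Zfp352 were counted through their NC level alone, which largely fixes the direction of their call. Of the 12343 entries at 1 FPKM or more in ESCs 7.07% were higher, and so were the 4 members among them, the 3 Zscan4 genes and Tcstv3. With both conditions scaled to the same sum of FPKM, the split over all counted entries was 2350 higher and 980 lower, in place of 1658 and 1412, and all 6 members were again higher. The median log2 ratio was 4.26 over the members and -0.03 over all counted entries. For Zscan4d 1.11% of counted entries rose at least as much, for Tcstv1 1.29%, for Zscan4f 1.33%, for Zscan4c 1.56%, for Tcstv3 1.59% and for Zfp352 2.32%. In ESCs the members lay between the 41st and the 56th percentile of all entries and in NCs between the 61st and the 93rd.

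**Figure D3:**
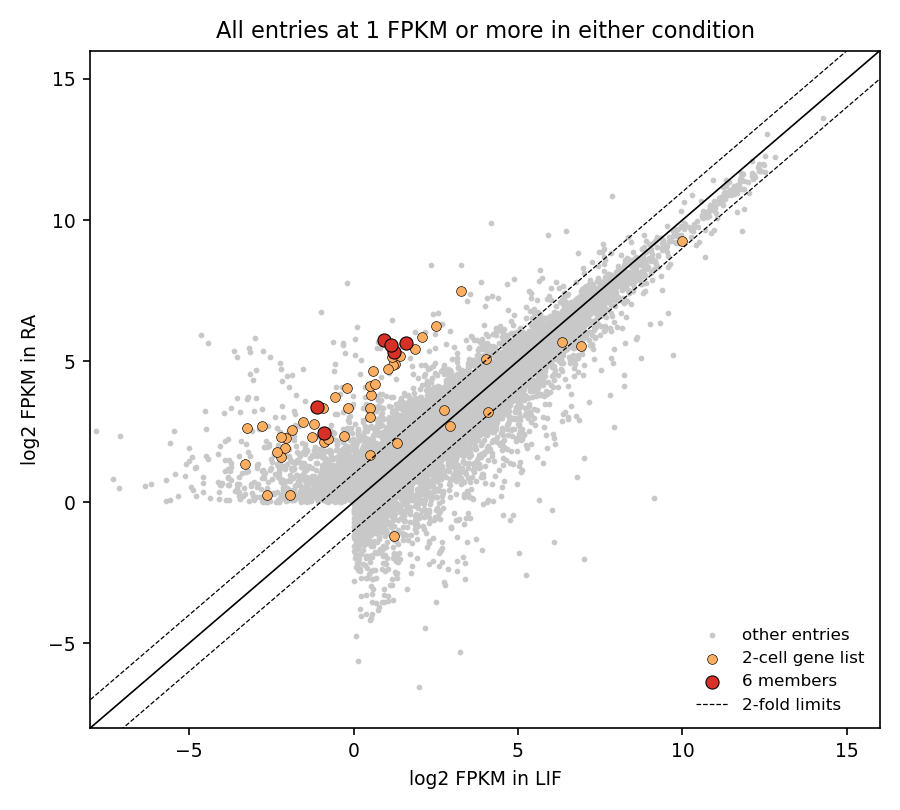
Log2 FPKM in ESCs (horizontal) against NCs (vertical) for entries at 1 FPKM or more in either condition and above 0 in both; red points are the 6 members, orange points the list of 2-cell genes, and dashed lines mark 2-fold. All 6 red points lie above the upper dashed line, and 12.5% of the counted entries were higher by this limit.

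The entries whose levels in both conditions were most like those of Zscan4d were sought by the distance in log2 FPKM over the 2 conditions, among entries at 1 FPKM or more in both. The nearest were Ccnd2, a D-type cyclin (distance 0.20), Plagl1, an imprinted zinc finger gene (0.21), Zscan4f (0.28) and Igfbp5, an IGF binding protein (0.33). Ccnd2 went from 1.67 to 51.5 FPKM, Plagl1 from 2.01 to 47.0 FPKM and Igfbp5 from 1.76 to 43.6 FPKM. Of these 4 genes 3 are not of the 2-cell group, and how common such likeness is with 2 points per gene was not measured. The log2 ratios of the members ran from 3.32 to 4.82, and 162 counted entries lay in this range. Of these 32 (19.8%) were members or genes of the 2-cell list, beside 0.391% of all counted entries. The members lie in the range by construction.

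On chromosome 13 the rise took in every counted entry from AF067063 to Tcstv3. AF067063 had 0.145 FPKM under LIF and 6.42 FPKM after RA. B020031M17Rik, which lies between Tcstv1 and Tcstv3, had 2.41 and 29.6 FPKM, and BC147527 had 0.341 and 7.22 FPKM. The highest levels of the cluster were those of Gm20767, with 9.65 and 181 FPKM, and AF067061, with 5.89 and 105 FPKM. Together with Tcstv1 and Tcstv3 these made 7 entries over 490 kb, with ratios from 12.3 to 44.3. Gm20767 has 70.2% of its 50-base words in other genes and AF067063 70.7%, so these values carry the same uncertainty as those of Zscan4. BC147527 has 14.3%. Several of these neighbours are relatives of the Tcstv genes in sequence. The coding part of Gm20767 was 93.6% identical to that of Tcstv1 and 93.7% to that of Tcstv3. Those of BC147527 and AF067063 were 90.5% and 81.5% identical to that of Tcstv3.

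The rise had an edge on the annotated map. Zfp131, a zinc finger gene next to AF067063, had 11.5 FPKM under LIF and 16.7 FPKM after RA, and Hmgcs1, an enzyme of cholesterol synthesis, had 136 and 123 FPKM, so both stayed within 2-fold. Ccl28 and 1700074H08Rik, beyond them, were at or near 0 in both conditions. On chromosome 7 all 6 counted entries within 250 kb of a member were Zscan4 copies, with ratios from 13.0 to 28.2 over 608 kb. The remaining entry there, Mir297-1, is listed at 0 in both conditions. Zfp352 had 1 other entry within 250 kb, Gm12633, at 0.0092 and 0.0048 FPKM.

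**Figure D4:**
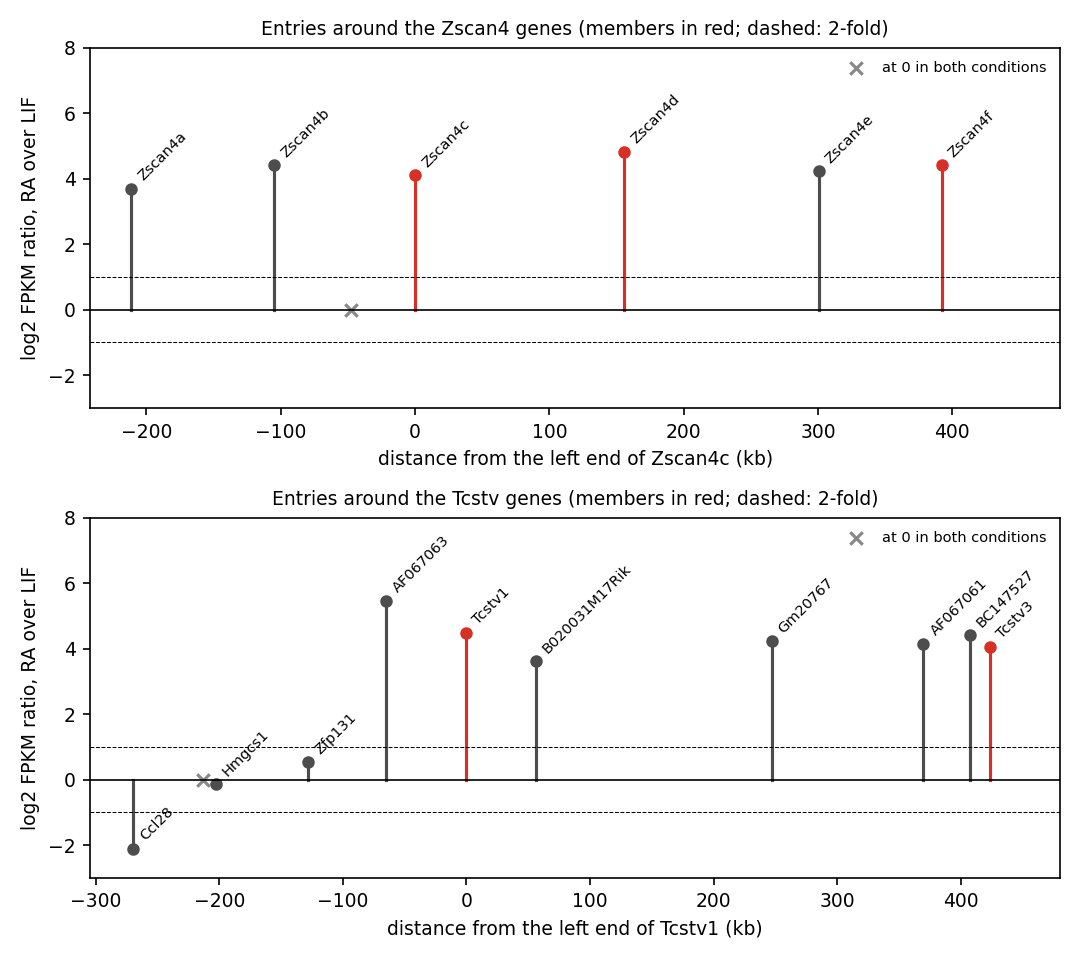
Log2 ratio of FPKM, RA over LIF, for the entries within 250 kb of a member, by distance in kb from Zscan4c (top) and Tcstv1 (bottom); members are red, and crosses mark entries at 0 in both conditions. The 6 Zscan4 copies with an entry lie between 3.70 and 4.82. Hmgcs1 (-0.14) and Zfp131 (0.54) lie between the 2-fold lines while the 7 entries to their right lie between 3.62 and 5.47.

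Promoter sequence was at hand for 4 of the 6 members, in RefSeq windows on GRCm38.p6 that run from 250 bases before the annotated start to 50 bases after it. The Zscan4 windows are shown to compare the letters of the copies, and a link between these letters and the levels was not tested. Each stretch of 120 bases is placed on the word tataaa, the TATA box sequence, and capitals mark the 8 positions at which the 4 copies differ. They come from chr7:11005611-11005730 (plus strand), chr7:11166174-11166293 (minus strand), chr7:11397804-11397923 (plus strand) and chr7:10905042-10905161 (minus strand).
Zscan4c: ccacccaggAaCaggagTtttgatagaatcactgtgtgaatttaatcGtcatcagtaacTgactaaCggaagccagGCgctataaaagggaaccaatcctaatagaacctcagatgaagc
Zscan4d: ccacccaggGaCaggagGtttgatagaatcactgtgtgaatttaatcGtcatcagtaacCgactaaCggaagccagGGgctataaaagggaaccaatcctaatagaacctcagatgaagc
Zscan4f: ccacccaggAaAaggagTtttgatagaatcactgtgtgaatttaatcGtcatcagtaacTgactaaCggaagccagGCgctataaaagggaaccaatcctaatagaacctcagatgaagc
Zscan4b: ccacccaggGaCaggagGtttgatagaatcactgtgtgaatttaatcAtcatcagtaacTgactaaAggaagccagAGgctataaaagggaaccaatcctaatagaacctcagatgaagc
The word TATAAA begins 31 bases before the annotated start in Zscan4f and Zscan4b, 54 before it in Zscan4c and 65 before it in Zscan4d. The RefSeq start of Zscan4d lies 11 bases inside the GENCODE start given above, from which the word is 54 bases away, as in Zscan4c. Zscan4b stood alone at 3 of the 8 positions. Zscan4d shared its letter with Zscan4b and not with Zscan4c and Zscan4f at another 3, and Zscan4c and Zscan4f differed from each other at 1. Of all 32851 windows of this length 13.6% hold TATAAA on either strand.

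Upstream of Zfp352 the RefSeq window is a run of repeats. The 250 bases before its start, chr4:90218570-90218819 on the plus strand, hold the word TAATCC, in capitals, 9 times.
Zfp352: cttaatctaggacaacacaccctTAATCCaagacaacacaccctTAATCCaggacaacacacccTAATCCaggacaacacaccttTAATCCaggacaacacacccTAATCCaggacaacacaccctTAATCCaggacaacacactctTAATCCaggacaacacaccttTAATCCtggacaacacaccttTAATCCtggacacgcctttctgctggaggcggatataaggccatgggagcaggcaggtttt
TAATCC is a word that homeodomain proteins of the OTX and OBOX kind are known to bind. It was present in 7.06% of all windows on either strand, and no other window held it 9 times. AGGTCA, a core word of the sites of nuclear receptors including those of RA, was found once in each of Zscan4c, Zscan4d and Zscan4f, 2 times in Zscan4b and not in Zfp352, against 16.3% of all windows. CACGTG, the E-box, and TGCACAC, a word reported for Zscan4 protein itself, were in none of these windows, against 7.15% and 4.40% of all windows. Matches were counted on both strands and could overlap those of another word. They describe the letters of these windows only.

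A list of 83 genes known from the 2-cell stage or from 2-cell-like ESCs, the members left out, gave 74 entries, of which 46 were counted. Of these 38 were higher in NCs, 2 were lower and 6 stayed within 2-fold, beside 12.5% higher and 10.6% lower over all counted entries. Of the 38, 21 were counted through their NC level alone, which largely fixes their direction. Of the 25 entries at 1 FPKM or more in ESCs 17 were higher and 2 were lower, beside 7.07% higher over all such entries. With Zscan4a, Zscan4b, Zscan4e, Gm20767, AF067063, BC147527, BB287469 and D5Ertd577e left out 31 of 39 were higher, 16 of them counted through NCs alone, and 15 of the 23 at 1 FPKM or more in ESCs were higher. Of the genes left out, AF067063, BB287469 and D5Ertd577e shared no 50-base word with a Zscan4 or Tcstv gene. The other 28 entries stayed under 1 FPKM in both conditions, 8 of them at 0 in each.

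Dux had 0.537 FPKM under LIF and 4.38 FPKM after RA, an 8.16-fold difference. The Usp17l genes, which encode deubiquitinating enzymes, were higher in 5 of 5, from Usp17ld with 0.218 and 4.93 FPKM to Usp17le with 2.26 and 35.6 FPKM. Gm2016, Gm2022, Gm5662 and Gm8300 were higher in 4 of 4, with Gm2022 at 4.19 FPKM under LIF and 58.1 FPKM after RA. Over all counted entries 12.5% were higher. Of the 5 Usp17l entries 2 were counted through their NC level alone. Sequence shared within these groups was not measured here, so their entries may not be independent of each other. BB287469 had 2 entries, 1 from 0.431 to 6.76 FPKM and the other from 0.052 to 0.656 FPKM. The largest rises of the list were those of B020004J07Rik, from 0.107 to 6.18 FPKM, and of AF067063. Among genes chosen after their values were seen, Tmem92 went from 1.52 to 25.4 FPKM, Arg2, the mitochondrial arginase, from 0.674 to 13.4 FPKM, and Gm8994 from 5.68 to 76.0 FPKM.

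Not all of the list moved with the members. Of the entries with the highest FPKM, Sod1, a superoxide dismutase that many cells express, had 1009 FPKM under LIF and 617 FPKM after RA, Eif1a, a translation initiation factor, had 80.6 and 50.9 FPKM, and Fbxo15, an F-box gene of pluripotent cells, had 120 and 46.9 FPKM. Fbxo15 and Zfp750, an epidermal zinc finger gene (2.34 and 0.433 FPKM), were the 2 entries that were lower. The 3 Trim43 genes had 0.190 to 0.636 FPKM in ESCs and 0.111 to 0.408 FPKM in NCs, so none was counted. Of the Pramef and Pramel genes 3 were counted, and Pramef6 alone of these was higher, at 0.102 and 2.56 FPKM. Tdpoz3 and Tdpoz4 were higher, with 0.581 and 4.72 FPKM and with 0.419 and 5.01 FPKM, and the other Tdpoz genes stayed under 1 FPKM. D5Ertd577e was at 0 under LIF and at 0.025 FPKM after RA.

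**Figure D5:**
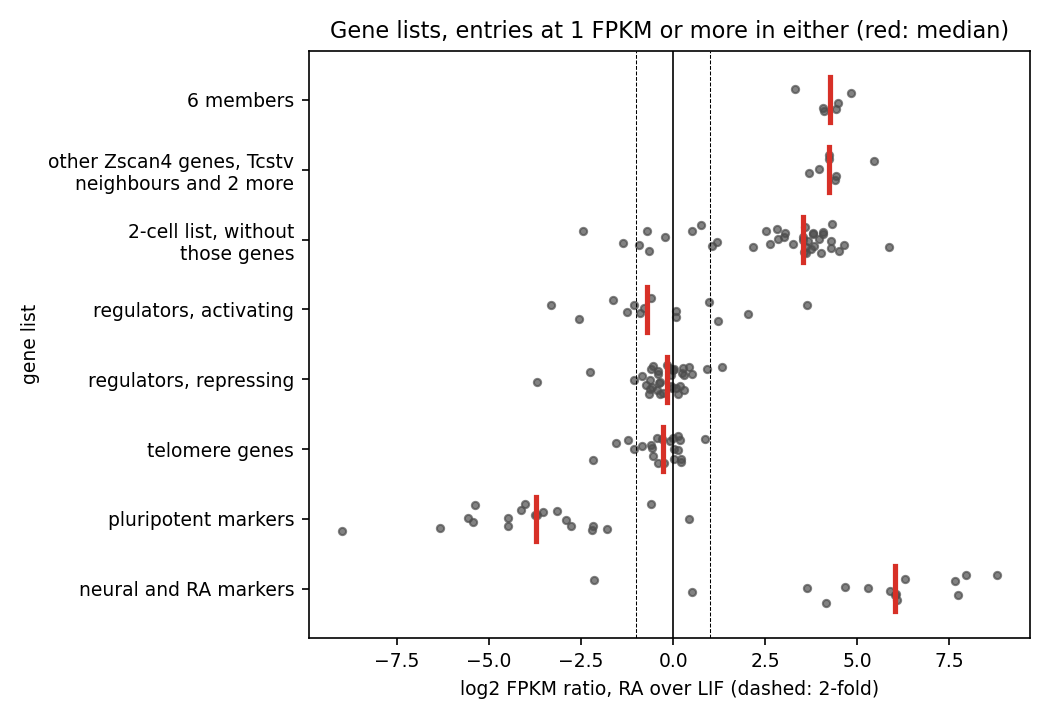
Log2 ratio of FPKM, RA over LIF, for the counted entries of 8 gene lists, 1 grey point per entry with a random vertical offset, red bars at the medians and dashed lines at 2-fold. The members (median 4.26) and the list of other Zscan4 genes, Tcstv neighbours, BB287469 and D5Ertd577e (4.24 over its counted entries) lie right of both dashed lines, while the repressing regulators (-0.17) and telomere genes (-0.28) are centred near 0.

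Genes linked to the switching on of 2-cell genes did not share a direction. Of 14 such genes, all counted, 3 were higher in NCs and 5 were lower, beside 12.5% and 10.6% of all counted entries. With both conditions at the same sum of FPKM 4 were higher and 3 were lower, beside 17.7% and 7.37%. Dppa2 had 27.3 FPKM under LIF and 29.0 FPKM after RA, whereas its partner Dppa4 had 79.8 and 33.8 FPKM. Tet1 and Tet2, which oxidize methylated cytosine, were lower, with 41.8 and 4.16 FPKM and with 5.89 and 1.89 FPKM, and Tet3 was higher, with 1.76 and 7.16 FPKM. Zscan10, a SCAN and zinc finger gene of pluripotent cells, had 35.0 and 5.96 FPKM, opposite to its Zscan4 relatives. Kdm4d, a histone H3K9 demethylase, had 0.145 and 1.79 FPKM and was counted through its NC level alone. Nelfa, a subunit of a complex that pauses RNA polymerase, had 51.0 and 101 FPKM, a ratio just under 2-fold that passes the limit after centring or with the sums made equal. Under equal sums Dppa4 and Rif1 fall within 2-fold. Trp53 (189 and 110 FPKM) and Kdm5b (82.2 and 44.3 FPKM) stayed within 2-fold. For some genes of this list, such as Rif1 and the Tet enzymes, an effect in the other direction on Zscan4 is also known.

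Of 37 genes known to hold 2-cell genes silent, all counted, 33 (89.2%) stayed within 2-fold, beside 76.9% of all counted entries. Of the rest 3 were lower and 1 was higher, and under equal sums L3mbtl2 is no longer lower and E2f6 is higher. Zfp42 (Rex1), a zinc finger repressor of pluripotent cells, had 299 FPKM under LIF and 22.9 FPKM after RA. Dnmt3b, a DNA methyltransferase, had 105 and 22.1 FPKM, and L3mbtl2, of a variant Polycomb complex, had 41.1 and 19.8 FPKM. Ring1, also of Polycomb, was higher, at 4.09 and 10.3 FPKM. Rpl13 (3263 and 2202 FPKM), Sumo2 (690 and 565 FPKM) and Trim28, the corepressor of many zinc finger proteins (459 and 300 FPKM), were the other entries of highest FPKM and stayed within 2-fold.

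Because Zscan4 is known for its part in telomere upkeep, a list of 23 genes was read beside it, telomere genes together with the meiotic genes Dmc1, Smc1b and Spo11. Of the 22 that were counted 0 were higher and 4 were lower, and 18 (81.8%) stayed within 2-fold, near the 76.9% of all counted entries. Under equal sums of FPKM 1 was higher, Terc (1.12 and 2.05 FPKM), and 2 were lower, since Tert and Rif1 fell within 2-fold. The 4 were Terf1, a subunit of the shelterin cap (101 and 34.3 FPKM), Tert, the catalytic subunit of telomerase (9.57 and 4.06 FPKM), Rif1 (55.8 and 26.5 FPKM) and the meiotic cohesin gene Smc1b (8.05 and 1.78 FPKM). Nhp2 (254 and 140 FPKM), Nop10 (180 and 122 FPKM) and Dkc1 (103 and 86.5 FPKM), proteins of the telomerase RNA particle, had the highest levels of the list besides Terf1. Spo11, the meiotic break enzyme, stayed under 1 FPKM.

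The members were higher in NCs while most pluripotent markers were lower. Pou5f1 had 832 FPKM under LIF and 37.1 FPKM after RA and Nanog 225 and 13.9 FPKM, and Cyp26a1, an RA-induced enzyme that degrades RA, had 0.874 and 215 FPKM, each in the direction that the labels of the conditions imply. Of 20 pluripotent markers 18 were lower, and of 15 counted neural and RA-response markers 13 were higher, 9 of them counted through NCs alone, while Tubb3, the neuronal tubulin, was lower (33.4 and 7.54 FPKM) and Nes stayed within 2-fold. Some markers of other cell types were also higher in NCs. Of 12 counted primitive endoderm markers 7 were higher, with a summed level of 244 FPKM under LIF and 346 FPKM after RA, and of 8 counted trophoblast markers 4 were higher and 2 lower, with sums of 120 and 186 FPKM and with Tpbpa and Prl3d1 at 0 in both conditions. Of 3 counted mesoderm markers 2 were higher (sums 5.11 and 8.42 FPKM), and of 6 counted fibroblast markers 4 were higher and 1 lower (sums 43.4 and 64.1 FPKM). Counted through NCs alone were 4 of the higher primitive endoderm markers, 2 of the trophoblast, 2 of the mesoderm and 2 of the fibroblast markers. Among entries at 1 FPKM or more in ESCs 3 of 8, 2 of 6, 0 of 1 and 2 of 4 were higher, in the same order. The shares over all entries were 7.07% higher by that filter, and 12.5% higher and 10.6% lower among all counted entries. The part of such cells in the levels of the members was not tested.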

How the data were processed

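RNA-seq was done on 3 samples of ESCs in LIF and 3 of NCs in RA. Per the labels and the methods of the study, the authors prepared TruSeq libraries, sequenced them on an Illumina HiSeq instrument, mapped the reads to mm10 (TopHat2 2.0.8, with Bowtie2 at version 2.1.0), used Cufflinks 2.0.2 and compared the conditions with Cuffdiff. The deposited FPKM values are 1 pooled value per gene and condition, and the NC heading reads FPK. The Cuffdiff version, its options, the gene annotation and the number of reads per sample are not given in the sources used here. The authors' columns of fold change, test statistic, p-value, q-value and significance were not used, and 0 columns were left unmatched to a condition.

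Ratios of FPKM were computed with no pseudocount. An entry was counted from 1 FPKM in either condition and called at 2-fold, and an entry at 0 in 1 condition and at 1 FPKM or more in the other was called. The ratio and the word search were tested on simulated data. Names in the table matched a GENCODE M21 gene for 21619 of 23235 entries, and 160 names stand in more than 1 entry. Coding parts were aligned with MAFFT 7.526, and Python 3.11.15, numpy 2.4.6 and pandas 2.3.3 were used. Step sizes for the depth assumed fragments of 200 bases and used genes with 1 transcript over 600 bases, a reading chosen after the data were seen. Named genes were the members, their other copies, the 4 entries of highest FPKM and the 2 largest rises and falls of the 2-cell, regulator and telomere lists, the 4 entries nearest to the member of highest FPKM, neighbours within 250 kb at 1 FPKM or more, and Pou5f1, Nanog and Cyp26a1. Other genes named, among them Dux, Dppa2, Tet2, Tert, Terc, E2f6, Tubb3, Nes, L3mbtl2, the Usp17l, Tdpoz, Trim43 and Pramef genes, and neighbours under 1 FPKM, were chosen after their values were seen. The members and lists were chosen with earlier results of these data known. The alternatives were pseudocounts, fold limits, FPKM filters, centring, scaling, word lengths and leaving out entries.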

Additional observations from a re-analysis of the deposited data

How the results depend on the processing

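All 6 members were called higher under each of the 9 alternatives. These were pseudocounts of 0.1 and 1, fold limits of 1.5 and 4, filters at 0.1 and 5 FPKM, no filter, centring on the median and scaling to the same sum of FPKM. The lowest log2 ratio of a member was 3.32, for Zfp352. The fold limits, the looser filters, centring and scaling therefore could not change a call. The number of 2-cell genes called higher, 38 of 46, was 27 of 33 with a filter at 5 FPKM, 44 of 60 at 0.1 FPKM and 44 of 63 with none, while the share of all entries called higher was 8.34%, 15.9% and 16.2%. With no values per replicate, a value was taken as moved when it changed by over 1.5 times. Of the 24 single log2 ratios of members under other settings 2 moved, both with a pseudocount of 1, which pulls in genes with low levels by construction: Tcstv1 to 2.96 and Zfp352 to 2.06. The log2 ratio of the summed members was 4.30, and 4.16 without Zscan4d. Scaling to the same sum raises every log2 ratio by 0.29, and centring raises it by 0.05. The median share of words found in another gene, 40.5% of 50-base words, was 18.7% of 100-base words, since a longer word is matched less often, and 52.6% of 36-base words. No paired analysis was possible because the 2 columns carry no replicate numbers, and no replicate could be left out for the same reason. Depth limits the ESC values of Tcstv1 and Zfp352 most.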
